A study of Mus musculus with 6 samples.

Results

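The interferon regulatory factors (IRFs) are a family of transcription factors. Their genes Irf1, Irf2, Irf3, Irf4, Irf5, Irf7, Irf8 and Irf9 were followed here in stem and progenitor cells treated with the PIM kinase inhibitor TP-3654. The 8 genes were chosen by symbol as family members, out of 15845 Entrez genes in the count table, and all 8 were among the 13149 genes with enough counts to be tested. RNA-seq had been done on 6 libraries of LSK cells, bone marrow cells without mature lineage markers that carry Sca1 and c-Kit, depleted of lineage-positive cells on magnetic beads and then sorted. The TP-3654 group held 3 C57BL/6 mice of genotype Mx1Cre; Jak2VF/VF given TP-3654 at 150 mg/kg/day for 6 weeks. The vehicle group held 3 mice of that strain and genotype given vehicle, labelled PBS, for 6 weeks. Both groups thus carried the Jak2 V617F allele of myeloproliferative neoplasm on both copies. Both also carried Mx1Cre, a recombinase whose promoter is itself switched on by interferon, so neither group shows the IRF genes of an untouched wild-type marrow. The age and sex of the mice were not used here. The series asks what inhibition of Pim1, a kinase downstream of JAK and STAT proteins, does to the progenitors of these mice.

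IRF proteins share a DNA-binding domain that reads the interferon-stimulated response element (ISRE), a repeat of GAAA blocks. IRF3, IRF5 and IRF7 wait in the cytoplasm and are switched on by kinases below nucleic acid sensors and Toll-like receptors; IRF9 joins STAT proteins in the complex that carries the type I interferon signal. IRF1 activates and IRF2 mostly represses the same elements, and mouse IRF2 is known to shield blood stem cells from interferon signalling. IRF4 and IRF8 bind DNA together with the ETS factor PU.1 (Spi1), and IRF8 directs progenitors toward monocytes and dendritic cells. STAT proteins bind a second element, the gamma-activated site (GAS), found upstream of several genes that answer JAK kinases.

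Promoter sequences of the 8 genes were looked up because JAK-STAT signalling is constantly active in these mice. All 8 genes had a RefSeq window (GRCm38.p6) from 250 bases before to 50 after an annotated start, 11 windows in all. The GAS letters TTCNNNGAA, which read the same on both strands, stood in at least 1 window of 3 of the 8 genes. Counted per gene in the same way, 862 of 10307 tested genes with a window had them (8.36%); counted per window, 8.30% of all 32851 windows did. The ISRE letters, GAAA, any 2 bases and GAAA again, searched on both strands, stood in that of Irf2 alone among the 8, where 3.87% of tested genes with a window, and 3.44% of all windows, had them. The 3 upstream stretches with a match are shown because they belong to Irf8 and Irf2, whose levels separated the groups, and to Irf1, whose levels did not. Capitals mark the matches, and all 3 genes lie on the plus strand.
Irf1, chr11:53769764-53770013: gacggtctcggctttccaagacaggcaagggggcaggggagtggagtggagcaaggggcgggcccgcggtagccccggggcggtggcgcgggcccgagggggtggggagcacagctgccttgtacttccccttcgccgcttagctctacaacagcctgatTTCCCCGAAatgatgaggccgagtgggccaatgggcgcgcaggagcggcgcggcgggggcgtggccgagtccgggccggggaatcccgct
Irf2, chr8:46739495-46739744: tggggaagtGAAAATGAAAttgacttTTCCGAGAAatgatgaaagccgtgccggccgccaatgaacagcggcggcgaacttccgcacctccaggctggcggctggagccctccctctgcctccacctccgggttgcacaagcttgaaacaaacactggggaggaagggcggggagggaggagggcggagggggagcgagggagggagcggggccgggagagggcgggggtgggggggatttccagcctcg
Irf8, chr8:120736108-120736357: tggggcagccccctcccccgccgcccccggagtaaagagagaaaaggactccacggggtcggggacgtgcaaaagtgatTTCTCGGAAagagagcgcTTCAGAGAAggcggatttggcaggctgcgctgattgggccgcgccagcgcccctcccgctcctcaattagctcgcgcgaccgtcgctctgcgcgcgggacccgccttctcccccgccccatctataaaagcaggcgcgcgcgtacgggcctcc
In Irf1 the GAS letters began 90 bases before the start, in Irf8 a pair of them began 171 and 153 bases before it, and in Irf2 they began 224 bases before it, next to ISRE letters that began 241 bases before it. A match of letters is a description of these windows and not evidence of binding. The tested genes with GAS letters in a window had a median log2 fold change (TP-3654 over vehicle) of 0.03 (862 genes), beside 0.01 for all 10307 tested genes with a window.

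Libraries held 20582057 to 25315596 counts, so that 3 counts, taken as the limit of detection, corresponded to 0.116 to 0.153 CPM (counts scaled to library size with TMM factors). Kit, the gene of c-Kit, stood at 436 to 581 CPM in TP-3654 libraries and 365 to 377 CPM in vehicle libraries, and Ly6a, the gene of Sca1, at 60.5 to 68.3 CPM with TP-3654 and 39.96 to 69.2 CPM with vehicle; Ly6a shares sequence with its neighbours. Of the T and NK cell markers, which summed to 193 to 289.5 CPM with TP-3654 and 269 to 348 CPM with vehicle, Cd3e, Cd3g, Cd8a and Gzma had no more than 3 counts in any library, as did the B cell marker Ms4a1. Most of the T and NK sum was Nkg7, at 134 to 216 CPM with TP-3654 and 224 to 263 CPM with vehicle. Nkg7 is also on the list of granulocyte-monocyte progenitor genes described below. The 18 mature neutrophil and monocyte markers, none of them at 0 throughout, summed to 215, 373 and 258 CPM in TP-3654 replicates 1 to 3 and to 962, 360 and 345 CPM in vehicle replicates 1 to 3. Vehicle replicate 1 thus stood apart from the other libraries in these markers. The sums of B cell, plasma cell and erythroid markers overlapped between groups. That of megakaryocyte markers was 434 to 514 CPM with TP-3654 and 389 to 409.8 CPM with vehicle. The sum of plasmacytoid dendritic cell markers overlapped (67.9 to 80.5 CPM with TP-3654, 63.4 to 88.4 CPM with vehicle). Most of it was Bst2, at 59.4 to 69.7 CPM with TP-3654 and 58.6 to 83.9 CPM with vehicle. The other tested members, Cox6a2 and Ly6d, were higher at an unadjusted edgeR p under 0.05, with groups that overlapped. Cox6a2 was at 2.61 to 6.89 CPM with TP-3654 and 1.49 to 3.02 CPM with vehicle. Ly6d was at 0.664 to 2.45 CPM with TP-3654 and 0.360 to 0.946 CPM with vehicle.

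Across the 8 members, no gene passed the edgeR quasi-likelihood test at a Benjamini-Hochberg adjusted p under 0.05 (the false discovery rate), as none of the 13149 genes tested did (0%). Only Irf8, lower with TP-3654, and Irf2, higher, had groups that did not overlap. That is 2 of 8 members, or 25.0%, close to the 25.9% of all tested genes with groups that did not overlap (14.3% higher, 11.6% lower). The same 2 members had an unadjusted p under 0.05, beside 17.1% of all tested genes. DESeq2 on the same counts called Irf8 alone, 1 of 8, beside 4.90% of tested genes (2.97% higher, 1.92% lower). The median log2 fold change of the 8 was -0.02, against 0.01 for all tested genes.

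**Figure D1:**
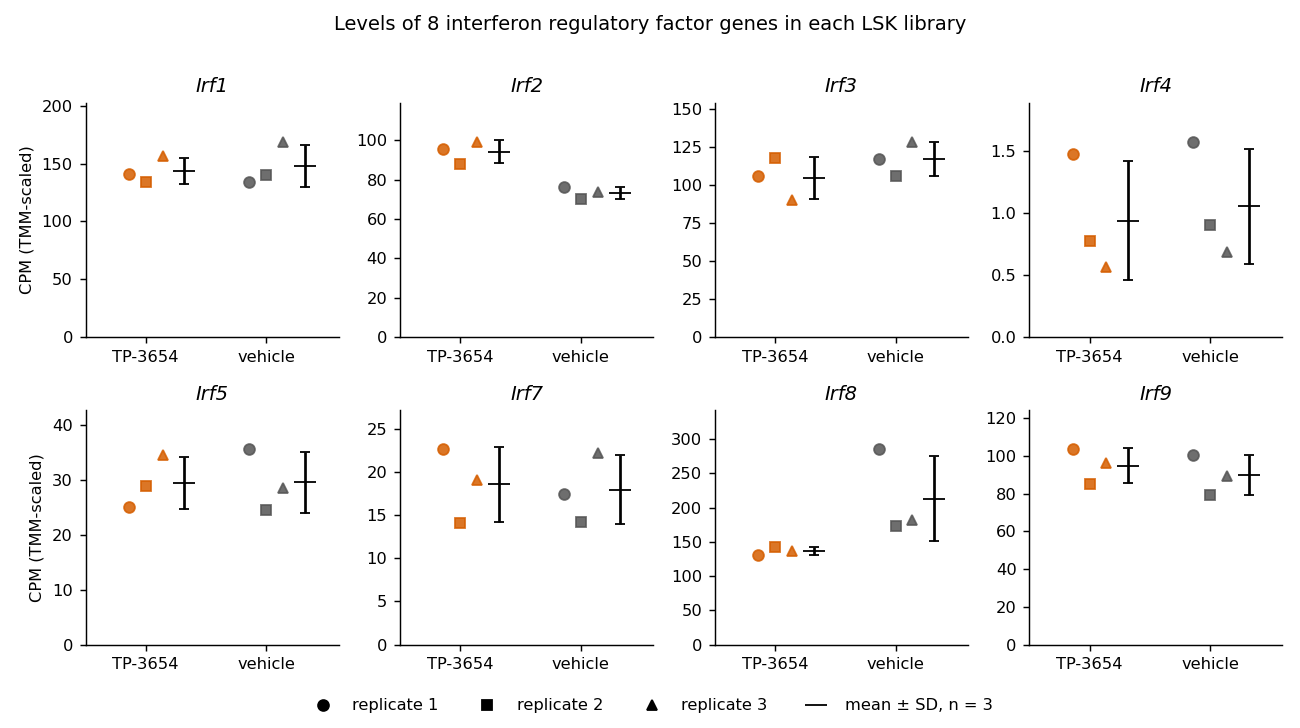
CPM of the 8 IRF genes in each library, with TP-3654 on the left and vehicle on the right of each panel; symbols mark the replicate, and bars the mean and SD of 3 libraries. The groups separated for Irf2 (87.7 to 99.2 CPM with TP-3654, 70.1 to 76.0 CPM with vehicle) and for Irf8 (131 to 142 CPM with TP-3654, 173 to 285 CPM with vehicle) and overlapped for the other 6.

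Irf8, the regulator of the monocyte and dendritic cell path (chr8:120736358-120756694, plus strand, GRCm38), stood at 131, 142 and 137 CPM in TP-3654 replicates 1 to 3, against 285, 173 and 182 CPM in vehicle replicates 1 to 3. The TP-3654 libraries lay close together, and all vehicle libraries lay above them, with vehicle replicate 1 the highest by far. The means were 137 ± 5.66 CPM with TP-3654 and 213 ± 62.3 CPM with vehicle (SD, n = 3 each), a level 1.56-fold lower with TP-3654. The log2 fold change was -0.64 (SE 0.19, 95% interval -1.06 to -0.22, edgeR adjusted p = 0.159; DESeq2 adjusted p = 0.0260). Vehicle replicate 1 set much of its size: without it the log2 fold change was -0.38 (edgeR adjusted p = 0.25), although the remaining vehicle libraries still lay above all TP-3654 libraries. Vehicle replicate 1 was also the library with the highest sum of mature neutrophil and monocyte markers, whose part in the Irf8 level was not tested. In bulk RNA, fewer cells of a type and less RNA per cell cannot be told apart.

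Genes that accompany Irf8 in monocyte and dendritic progenitors were mostly lower as well, though none passed the edgeR test. Of 28 tested genes of this list, Irf8 included, 9 had an unadjusted p under 0.05 and lower levels, where 6.84% of all tested genes did, and 3 had higher levels, where 10.2% did. The list's median log2 fold change was -0.34. Without vehicle replicate 1 that median was 0.05, with 6 lower and 5 higher genes, so the median's direction rested on that library. Here and below, shares over all tested genes were taken with all 6 libraries only. Counts of list genes with 1 library left out therefore have no matching share to be set against. Cx3cr1, the fractalkine receptor of monocytes, had the smallest p, at 17.0, 16.1 and 10.9 CPM in TP-3654 libraries against 41.7, 33.5 and 25.1 CPM in vehicle libraries, with no overlap. Its log2 fold change was -1.18 (SE 0.23, edgeR adjusted p = 0.0792). Ly86, which encodes the Toll-like receptor helper MD-1, was at 18.2, 18.3 and 16.7 CPM with TP-3654 and at 45.9, 28.8 and 23.1 CPM with vehicle (log2 fold change -0.88, SE 0.24, edgeR adjusted p = 0.140). Like Irf8, it was tight among TP-3654 libraries and highest in vehicle replicate 1. In the other direction lay Runx2, a transcription factor active in plasmacytoid dendritic cells, and Flt3, the cytokine receptor of multipotent and dendritic progenitors. Runx2 had a log2 fold change of 0.42 (SE 0.10, edgeR adjusted p = 0.110). Flt3 stood at 205, 264 and 333 CPM with TP-3654 and at 145, 132 and 191 CPM with vehicle (log2 fold change 0.78, SE 0.20, edgeR adjusted p = 0.130). The monocyte and dendritic list therefore held genes on both sides, with the receptor Flt3 higher and Cx3cr1 and Ly86 lower in each TP-3654 library.

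Spi1, the gene of PU.1 with which IRF8 and IRF4 bind DNA, was at 114, 150 and 103 CPM in TP-3654 libraries and at 188, 154 and 172 CPM in vehicle libraries. The groups just failed to touch, between TP-3654 replicate 2 and vehicle replicate 2. Its log2 fold change was -0.49 (SE 0.15, edgeR adjusted p = 0.180). The ratio of Irf8 to Spi1 CPM within a library was 1.14 ± 0.193 with TP-3654 and 1.23 ± 0.246 with vehicle (SD, n = 3 each), overlapping between groups (two-sided exact permutation p = 0.7, adjusted p = 0.7 over 3 ratios tested, where 3 against 3 libraries cannot go below 0.1). The ratio differed between groups by less than the spread of the libraries.

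The granulocyte-monocyte progenitor genes of the same libraries give the setting of the Irf8 level. Of 21 tested, 15 had an unadjusted p under 0.05 and lower levels with TP-3654, beside 6.84% of all tested genes, and their median log2 fold change was -1.14. The count was 8 without TP-3654 replicate 1, with 1 higher, and 10 without vehicle replicate 1. Their summed level was 8083, 12840.3 and 6429 CPM in TP-3654 replicates 1 to 3, against 19484, 18216 and 16580.4 CPM in vehicle replicates 1 to 3. Cebpa, the factor that commits cells to the myeloid path, had a log2 fold change of -0.86 (SE 0.20, edgeR adjusted p = 0.106), and Anxa3, Ap3s1 and Plac8 had -1.27, -1.04 and -0.72. Among TP-3654 libraries, replicate 2 was highest both in this sum and in Irf8 (142 CPM), while the lowest was replicate 3 in the sum and replicate 1 in Irf8 (131 CPM). Of 21 tested stem cell genes, 11 had an unadjusted p under 0.05 and higher levels, beside 10.2% of all tested genes, led by Hlf (log2 fold change 0.92), Tie1 (0.82), Mecom (1.04) and Txnip (0.64). The part of this shift in marker genes in the Irf8 and Irf2 levels was not tested.

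**Figure D2:**
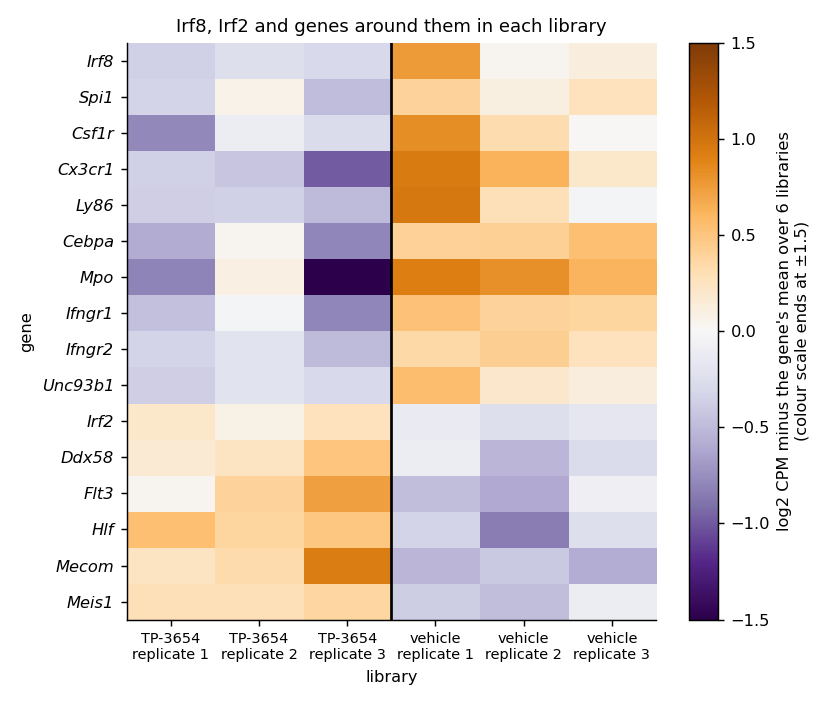
Log2 CPM of Irf8, Irf2 and 14 genes around them, each minus its own mean over 6 libraries, with TP-3654 replicates 1 to 3 on the left and vehicle replicates 1 to 3 on the right; the colour scale ends at 1.5 in either direction. Rows from Irf8 to Unc93b1 are lower in TP-3654 libraries, apart from small positive values of Spi1, Cebpa and Mpo in TP-3654 replicate 2, and rows from Irf2 to Meis1 are higher in them.

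Among the genes whose log2 CPM followed Irf8 most closely over the 6 libraries were, by Pearson correlation among 11576 genes, the ubiquitin-conjugating enzyme gene Ube2w (r = 0.99), Creld2 (0.98), Gpr89 (0.98) and Cog6 (0.98). Creld2, an endoplasmic reticulum protein gene, stood at 50.6, 57.3 and 49.4 CPM with TP-3654 and at 98.0, 68.1 and 69.1 CPM with vehicle. It shows the shape shared by these 4, a flat low level with TP-3654 and a peak in vehicle replicate 1. The points are 6 libraries with shared scaling factors, and 109 of the genes compared (0.942%) had an r above 0.9.

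Irf2, the repressor that competes with IRF1 (chr8:46739745-46847458, plus strand), stood at 95.5, 87.7 and 99.2 CPM in TP-3654 replicates 1 to 3 and at 76.0, 70.1 and 73.6 CPM in vehicle replicates 1 to 3. All TP-3654 libraries lay above all vehicle libraries, with little spread inside either group. The means were 94.1 ± 5.85 CPM with TP-3654 and 73.2 ± 2.99 CPM with vehicle (SD, n = 3 each), 1.29-fold higher with TP-3654. The log2 fold change was 0.36 (SE 0.10, 95% interval 0.13 to 0.60, edgeR adjusted p = 0.154; DESeq2 adjusted p = 0.0794). Leaving out any 1 library gave 0.31 to 0.41, so no single library carried the difference. Of the 8 members Irf2 had the smallest p in edgeR.

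Because IRF1 and IRF2 read the same element, the ratio of Irf2 to Irf1 CPM was taken within each library, where scaling factors cancel. It was 0.677, 0.653 and 0.635 in TP-3654 libraries and 0.566, 0.499 and 0.436 in vehicle libraries, with no overlap. The mean log2 ratio was 0.40 higher with TP-3654 (two-sided exact permutation p = 0.1, the smallest that 3 against 3 libraries allow, adjusted p = 0.15 over 3 ratios tested). All 4 ratios were chosen after the levels were seen, when Irf2 and Irf8 separated the groups and Irf1 did not. The ratios of Irf2 and Irf8 to Irf1 thus largely restate the levels of Irf2 and Irf8. Their p-values therefore add no separate support. The ratio of Irf8 to Irf1 was 0.929, 1.06 and 0.876 with TP-3654 and 2.12, 1.23 and 1.08 with vehicle (exact permutation p = 0.1, adjusted p = 0.15). That of Irf8 to Irf2 was 1.37, 1.62 and 1.38 with TP-3654 and 3.75, 2.46 and 2.47 with vehicle; since Irf8 was lower and Irf2 higher in every TP-3654 library, this separation follows from the levels above and is given with no test. These ratios compare a gene's proportion to another across libraries, not the levels of different genes, since lengths differ.

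Among the corepressors recruited by IRF2, Irf2bp2 went the other way from Irf2, at 118, 162 and 106 CPM with TP-3654 against 199, 161 and 183 CPM with vehicle. The groups overlapped narrowly, and the log2 fold change was -0.49 (SE 0.16, edgeR adjusted p = 0.200). Irf2bpl had a log2 fold change of 0.45 (SE 0.20, edgeR adjusted p = 0.293) with groups that did not overlap. The genes nearest to Irf2 by the same measure were Pou6f1 (r = 0.996), Ldhb (0.996), Mapkbp1 (0.995), Plxdc2 (0.994) and Bmp1 (0.993). Among the genes compared, 384 (3.32%) had an r above 0.9 with Irf2.

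The remaining 6 members had groups that overlapped. Irf1, the activator induced by interferon gamma (chr11:53770014-53778374, plus strand), was at 141, 134 and 156 CPM with TP-3654 and at 134, 141 and 169 CPM with vehicle. The ranges nearly coincided, and the log2 fold change was -0.04 (SE 0.12, 95% interval -0.32 to 0.24, edgeR adjusted p = 0.886). Irf3, the factor activated in the cytoplasm by TBK1 (chr7:44997648-45002848, plus strand), was at 106, 118 and 90.0 CPM with TP-3654 and at 117, 106 and 129 CPM with vehicle. TP-3654 replicate 3 was the lowest of the 6 libraries, and the log2 fold change was -0.17 (SE 0.13, 95% interval -0.46 to 0.13, edgeR adjusted p = 0.509). Irf9, the DNA-binding part of the type I interferon complex (chr14:55603985-55610030, plus strand), was at 104, 84.9 and 96.2 CPM with TP-3654 and at 101, 79.4 and 89.3 CPM with vehicle. Its log2 fold change was 0.08 (SE 0.13, 95% interval -0.21 to 0.36, edgeR adjusted p = 0.757). For these 3 genes the intervals left out changes as large as the one of Irf8.

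Irf5, a factor below Toll-like receptors (chr6:29526130-29541869, plus strand), was at 24.9, 28.9 and 34.4 CPM with TP-3654 and at 35.5, 24.5 and 28.5 CPM with vehicle. Its log2 fold change was -0.005 (SE 0.18, 95% interval -0.41 to 0.40, edgeR adjusted p = 0.992). Irf7, the amplifier of type I interferon production (chr7:141263183-141266499, minus strand), was at 22.6, 14.01 and 19.0 CPM with TP-3654 and at 17.5, 14.2 and 22.1 CPM with vehicle. The spread inside each group exceeded the difference between them (log2 fold change 0.05, SE 0.22, 95% interval -0.46 to 0.55, edgeR adjusted p = 0.927). Irf4, which acts mainly in lymphocytes and plasma cells (chr13:30749233-30766981, plus strand), was the lowest member, with 32, 20 and 11 counts in TP-3654 libraries and 40, 20 and 15 counts in vehicle libraries. At 0.562 to 1.48 CPM with TP-3654 and 0.687 to 1.58 CPM with vehicle, its 95% interval of the log2 fold change ran from -1.28 to 0.94, so changes of 2-fold in either direction, or close to it, were not resolved at this depth. Whether counting used strand was not given, and several members overlap a neighbour, so some of their reads may be shared: Irf5 shares 411 annotated exon bases with Tnpo3, Irf1 135 with Gm17334, Irf9 123 with Rnf31, Irf3 88 with Bcl2l12 and Irf7 45 with Phrf1.

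**Figure D3:**
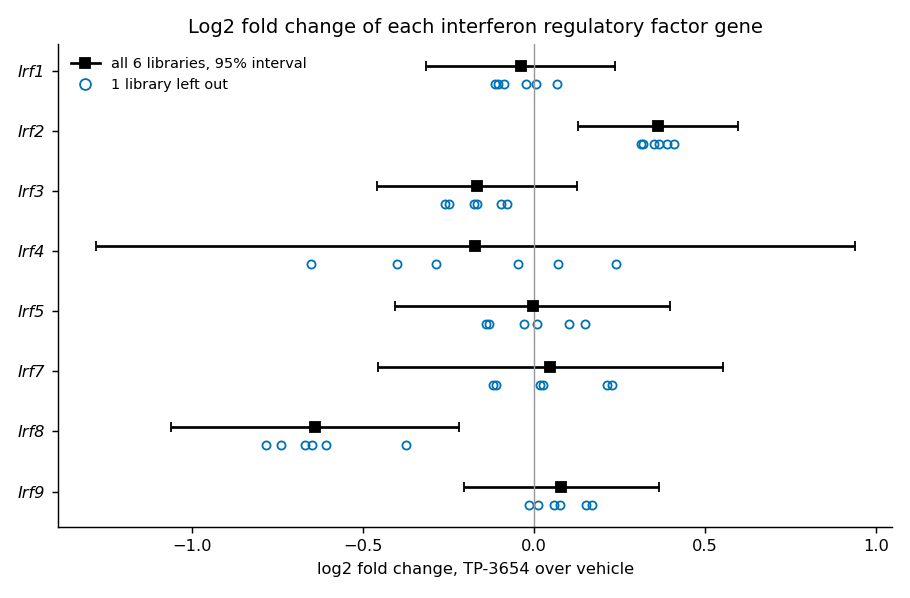
Log2 fold change (TP-3654 over vehicle) of the 8 IRF genes; black squares with bars give the value and 95% interval with all 6 libraries, and open circles the values when 1 library is left out. The intervals of Irf2 and Irf8 lie off 0 before adjustment for 13149 genes, and the circle of Irf8 nearest to 0 is the fit without vehicle replicate 1.

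Per kilobase of merged exon length, Irf1 had the highest level of the 8 in both groups, at 36.2 ± 2.82 CPM per kilobase with TP-3654 and 37.2 ± 4.65 with vehicle (SD, n = 3 each). Irf3 came next, at 30.4 ± 4.04 with TP-3654 and 34.1 ± 3.26 with vehicle. Irf8 followed at 19.4 ± 0.802 CPM per kilobase with TP-3654 and 30.2 ± 8.82 with vehicle. In vehicle libraries the ranges of Irf1, Irf3 and Irf8 overlapped, so their order is not resolved there; in TP-3654 libraries Irf1 and Irf3 overlapped in range and Irf8 lay below both. With TP-3654 Irf8 (18.6 to 20.2) instead overlapped in range with Irf9 (15.8 to 19.2). Irf2 was at 12.7 ± 0.790 CPM per kilobase with TP-3654 and 9.90 ± 0.405 with vehicle, and Irf5 at 10.1 ± 1.63 with TP-3654 and 10.2 ± 1.91 with vehicle, so that Irf2 lay above every Irf5 value with TP-3654 and inside the Irf5 range with vehicle. Irf7 stood at 4.91 ± 1.14 with TP-3654 and 4.75 ± 1.06 with vehicle, and Irf4 was lowest at 0.192 ± 0.0981 with TP-3654 and 0.215 ± 0.0946 with vehicle. Lengths come from an annotation that may list exons not used in LSK cells. Per kilobase of the longest transcript, 2 of these placements did not hold. Irf8 with TP-3654 (37.8 to 41.0) then lay wholly above Irf9 (21.9 to 26.8). Irf2 with vehicle (17.7 to 19.2) then lay wholly above Irf5 (10.95 to 15.8).

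**Figure D4:**
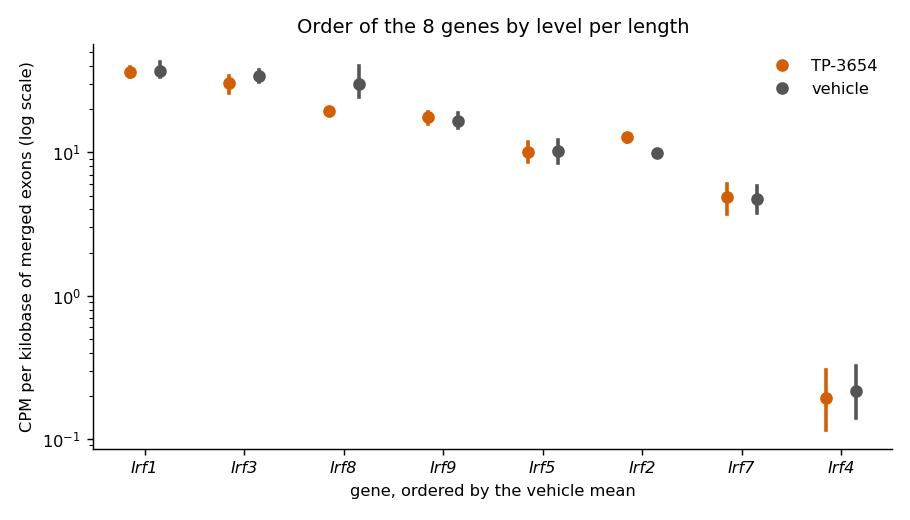
Level per kilobase of merged exon length of the 8 IRF genes on a log axis, with the TP-3654 mean left of the vehicle mean for each gene and lines spanning the lowest to the highest library. By this length Irf8 sits beside Irf3 in vehicle libraries (30.2 and 34.1 CPM per kilobase) and beside Irf9 in TP-3654 libraries (19.4 and 17.6 CPM per kilobase). Per kilobase of the longest transcript, not drawn, Irf8 with TP-3654 lies wholly above Irf9 (37.8 to 41.0 against 21.9 to 26.8).

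Upstream of the IRFs, the sensors and adaptors that activate IRF3, IRF5 and IRF7 showed no common direction. Of 25 tested genes, 2 higher and 2 lower had an unadjusted p under 0.05, beside 10.2% higher and 6.84% lower of all tested genes. The median log2 fold change was 0.02. Without vehicle replicate 1 the counts were 1 higher and 1 lower. They were 1 higher and 3 lower when TP-3654 replicate 2 or vehicle replicate 2 was left out. Unc93b1, the chaperone that delivers nucleic acid-sensing Toll-like receptors to endosomes, was at 128, 143 and 135 CPM with TP-3654 and at 243, 189 and 179 CPM with vehicle. The groups did not overlap, and vehicle replicate 1 was again the highest library (log2 fold change -0.59, SE 0.13, edgeR adjusted p = 0.0936). Ikbke, a kinase that phosphorylates IRF3 and IRF7, was also lower in each TP-3654 library (log2 fold change -0.42, SE 0.13, edgeR adjusted p = 0.184). Ddx58, which encodes the RNA sensor RIG-I, was at 56.3, 59.4 and 70.9 CPM with TP-3654 and at 46.9, 35.1 and 41.6 CPM with vehicle, without overlap (log2 fold change 0.59, SE 0.15, edgeR adjusted p = 0.112). Tlr7, the single-stranded RNA sensor, was low, at 4.07 to 7.01 CPM with TP-3654 and 2.70 to 3.99 CPM with vehicle (log2 fold change 0.73, SE 0.29, edgeR adjusted p = 0.259).

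Of the interferon receptors, kinases and STATs, 17 genes were tested, at a median of -0.08. Of these, 2 higher and 2 lower had an unadjusted p under 0.05, beside 10.2% higher and 6.84% lower of all tested genes. Without TP-3654 replicate 3 there were 1 higher and 4 lower, and leaving out any library other than TP-3654 replicate 1 gave 1 higher and 2 to 4 lower. For both chains of the interferon gamma receptor, TP-3654 libraries lay wholly below vehicle libraries. Ifngr2 was at 33.8, 36.9 and 30.2 CPM with TP-3654 and at 54.0, 57.2 and 51.0 CPM with vehicle (log2 fold change -0.68, SE 0.12, edgeR adjusted p = 0.0792; DESeq2 adjusted p = 0.000233). Ifngr1 was at 111, 150 and 88.0 CPM with TP-3654 and at 219, 200 and 200 CPM with vehicle (log2 fold change -0.83, SE 0.18, edgeR adjusted p = 0.0875; DESeq2 adjusted p = 0.000967). The vehicle libraries lay close together for both chains, unlike for Irf8, and leaving out 1 library gave -0.76 to -0.62 for Ifngr2 and -1.05 to -0.67 for Ifngr1. The kinase gene Jak1 (log2 fold change 0.39, edgeR adjusted p = 0.174) and Stat3 (0.33, edgeR adjusted p = 0.268) were higher in each TP-3654 library. Stat2, a partner of IRF9, overlapped between groups, at 50.2 to 58.5 CPM with TP-3654 and 51.8 to 63.8 CPM with vehicle (log2 fold change -0.02).

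Of 15 tested IRF partners and corepressors, 1 higher and 2 lower had an unadjusted p under 0.05, with a median of -0.002. The shares over all tested genes were 10.2% higher and 6.84% lower. Without vehicle replicate 1 there were 0 higher and 1 lower partner genes at a median of 0.23. Leaving out any other library gave 0 to 2 higher and 1 to 3 lower, at medians of -0.04 to 0.06. The 2 lower ones were Spi1 and Irf2bp2, and the higher one was Etv6, an ETS repressor needed by blood stem cells (log2 fold change 0.27, SE 0.11, edgeR adjusted p = 0.273).

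Downstream, few type I interferon targets differed between groups. Of 49 tested genes, 3 higher and 1 lower had an unadjusted p under 0.05, shares below the 10.2% and 6.84% of all tested genes. The median log2 fold change was 0.15, with 36 values above 0 and 13 below, and leaving out 1 library gave medians of 0.04 (without vehicle replicate 2) to 0.26 (without TP-3654 replicate 2). The counts were 7 higher and 0 lower without TP-3654 replicate 2, and 6 higher and 2 lower without vehicle replicate 1. Shares over all tested genes in these fits are not given here. Their summed level was 2265 to 2782 CPM with TP-3654 and 2326 to 2615 CPM with vehicle, overlapping between groups. Besides Ddx58, the smallest p belonged to the helicase gene Helz2 (log2 fold change 0.47, SE 0.14), to Eif2ak2, which encodes the RNA-activated kinase PKR (0.41, SE 0.14), and to the GTPase gene Ifi47 (-0.35, SE 0.13), with edgeR adjusted p-values of 0.163, 0.204 and 0.229. Eif2ak2 groups were parted by less than 1 CPM, 62.4 CPM in the lowest TP-3654 library and 61.8 CPM in the highest vehicle library.

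Of 36 tested interferon gamma and IRF1 targets, 1 higher and 4 lower had an unadjusted p under 0.05, at a median of -0.05. With all 6 libraries, the shares over all tested genes were 10.2% higher and 6.84% lower. Without vehicle replicate 1 there were 1 higher and 8 lower, without vehicle replicate 2 there were 1 higher and 2 lower, leaving out TP-3654 replicate 1 gave 2 higher and 2 lower, and leaving out TP-3654 replicate 2 gave 3 higher and 2 lower. The numbers of higher and lower list genes thus changed with the libraries used. Whether the shares over all tested genes changed likewise was not tested. The class I heavy chain gene H2-D1, which shares sequence with other class I genes, was at 930.1, 964 and 807 CPM with TP-3654 and at 1088, 1225 and 1341 CPM with vehicle, without overlap (log2 fold change -0.44, SE 0.13, edgeR adjusted p = 0.172). The GTPase gene Gbp5, one of a family of similar genes, had a log2 fold change of -0.40 (SE 0.14, edgeR adjusted p = 0.204), and Tapbp, which loads class I molecules with peptide, one of -0.37 (SE 0.15, edgeR adjusted p = 0.259). Cd274, the gene of the checkpoint ligand PD-L1 and a target of IRF1, was on the other side, at 42.0, 59.0 and 56.7 CPM with TP-3654 and 37.4, 29.7 and 36.7 CPM with vehicle (log2 fold change 0.60, SE 0.16, edgeR adjusted p = 0.136).

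The ISRE letters were found in the promoter windows of 16 of 35 type I interferon targets that had a window and of 11 of 26 interferon gamma and IRF1 targets. These are 45.7% and 42.3% of genes, against 3.87% of all tested genes with a window. The 16 had a median log2 fold change of 0.26 and the 11 one of -0.12, so genes with the same letters lay on either side of 0. Among all 399 tested genes with ISRE letters in a window, the median was 0.03. Groups did not overlap, with higher levels, in 10.03% of them, and with lower levels in 10.3%. For all tested genes with a window these shares were 14.3% and 11.5%.

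**Figure D5:**
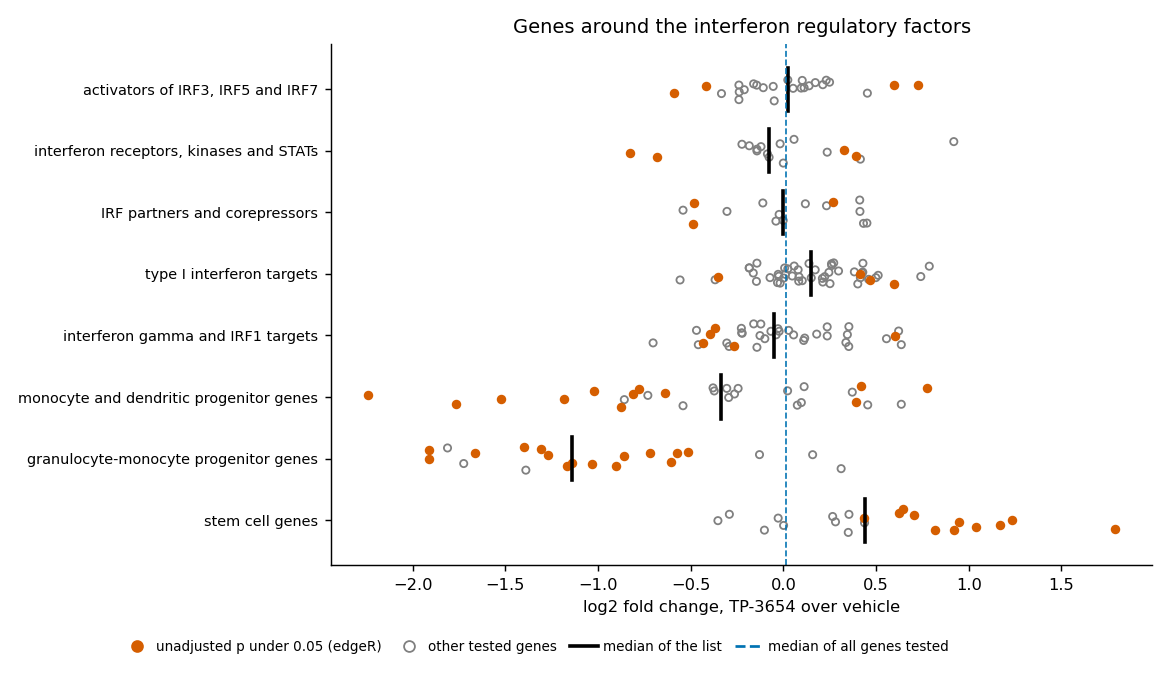
Log2 fold change (TP-3654 over vehicle) of every tested gene in 8 lists around the IRF genes; filled points have an unadjusted p under 0.05 in edgeR, thick bars are list medians, and the dashed line is the median of all genes tested. Medians of the activator, receptor, partner and interferon target lists lie between -0.08 and 0.15, that of the monocyte and dendritic list at -0.34, that of the granulocyte-monocyte list at -1.14 and that of the stem cell list at 0.44.

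The authors' deposited table of their own comparison calls Irf8 lower (deposited log2 fold change -0.73, deposited adjusted p = 0.0136) and no other of the 8 genes, with Irf2 at a deposited log2 fold change of 0.31 and a deposited adjusted p of 0.0696; that table calls 5.32% of its genes. In the authors' deposited table Irf7 has a log2 fold change of -0.23 (SE 0.51) and Irf9 one of -0.05 (SE 0.20), where DESeq2 on the deposited counts gave 0.04 (SE 0.25) and 0.07 (SE 0.15). The deposited mean of normalized counts of Irf8 in the authors' deposited table, 2453, also differs from the 3942 that the counts gave with DESeq2. The deposited fold changes were thus not recovered exactly from the deposited counts, for a reason the sources used here do not give. Across 12808 genes, the deposited log2 fold changes had a Pearson r of 0.90 with those of DESeq2 on the counts. The authors' deposited table calls 699 genes and DESeq2 on the counts called 644, with 467 genes called by both.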

How the data were processed

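RNA-seq of LSK cells from 6 mice, 3 per group, was analysed from the processed files. The authors deposited whole-number read counts per Entrez gene, not normalized. They also deposited a comparison table that holds, per the file headers, a mean signal (normalized counts), log2 fold changes and their errors, a score (the Wald statistic) and raw and adjusted p-values. Per the submitters' processing notes, HISAT2 2.1.0, SAMtools 1.9.0 and DESeq2 were used with mm10 or GRCm38. The sources used here do not give the read counter, its annotation or its use of strand. Symbols for 15839 of 15845 genes came from the deposited table, else from RefSeq (GRCm38.p6). Loci are from RefSeq, and exon lengths and overlaps from GENCODE (GRCm38).

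The main test was edgeR 4.0.16 in R 4.3.3 (filterByExpr, TMM, robust quasi-likelihood F test, Benjamini-Hochberg over 13149 genes), checked on simulated counts. Standard errors were the fold change (log2, unsigned) divided by the root of F, and 95% intervals used the test's t quantile. The edgeR p-values weigh the difference between groups against the spread between the 3 libraries of a group, moderated over all genes tested. Permutation p-values rest only on the relabelings of the 6 libraries. Correlations used log2(CPM + 0.1) of genes whose average log2 CPM was 1 or more, and ratios an exact permutation test. DESeq2 1.42.0, voom in limma 3.58.1 (plain and weighted by sample), other scalings and filters, a fit without robust estimation, a replicate block and leaving out each library were the alternatives.

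The text names the IRF genes, up to 4 genes of each pathway list with the smallest p, IRF partners, the sort markers and, for each IRF gene whose groups did not overlap, the 5 genes nearest to it. Some genes that this rule names are not reported here. The 8 members and all gene lists were chosen with earlier results of these data known.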

Additional observations from a re-analysis of the deposited data

How the results depend on the processing

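Of the 8 IRF genes, Irf2 and Irf8 kept their direction under all 16 alternatives, at log2 fold changes of 0.31 to 0.41 for Irf2 and of -0.78 to -0.38 for Irf8 when 1 library was left out. DESeq2 called Irf8 at -0.65, the one alternative that did. The number of genes called, 0 with edgeR, was 644 with DESeq2, 147 with limma-voom and sample weights, 5 with no low-count filter and 3 with a replicate block. Leaving out 1 library gave 0 to 31 calls, the 31 without TP-3654 replicate 3, and 0 without any vehicle library. DESeq2 called 4.90% of all tested genes. Of the lists it called 1 of 8 IRF genes, 2 of 25 activators of IRF3, IRF5 and IRF7, and 2 of 17 interferon receptor, kinase and STAT genes. It also called 1 of 49 type I interferon targets and 2 of 36 interferon gamma and IRF1 targets. Of the marker lists it called 8 of 28 monocyte and dendritic, 11 of 21 granulocyte-monocyte and 10 of 21 stem cell genes. With sample weights, 147 of all 13149 tested genes were called. Among them were 1 receptor, kinase and STAT gene, 1 monocyte and dendritic, 2 granulocyte-monocyte and 5 stem cell genes. Leaving out 1 library gave 0 to 1 for the receptors, kinases and STATs and 0 to 5 for the granulocyte-monocyte genes. Both highest counts came without TP-3654 replicate 2. Without TP-3654 replicate 3, no gene of any list was called. The cause of these differences was not tested.

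Genes near no change turned sign. Irf4 was at 0.0042 with sample weights, and Irf5 at 0.0086 with upper-quartile factors and at 0.0013 with the replicate block. Leaving out 1 library gave log2 fold changes of -0.11 to 0.067 for Irf1, -0.65 to 0.24 for Irf4, -0.14 to 0.15 for Irf5, -0.12 to 0.23 for Irf7, -0.015 to 0.17 for Irf9 and -0.073 to 0.082 for Stat2. Per kilobase of the longest transcript in place of merged exons, the vehicle ranks became 2 for Irf8, 3 for Irf3, 5 for Irf2 and 6 for Irf5. The TP-3654 ranks stayed, but Irf8 and Irf9 no longer overlapped in range there, nor did Irf2 and Irf5 with vehicle. A filter of 1 CPM in 3 libraries leaves out Irf4. Replicate numbers did not pair the libraries: deviations of same-numbered libraries had correlations of -0.01, -0.01 and 0.03, and not every library correlated best with its own number. The block left Irf8 at -0.60 and Irf2 at 0.36.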
